A study of Neurospora crassa with 42 samples.

Results

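A set of 96 genes of the filamentous fungus Neurospora crassa was followed here, selected on their transcript levels, which were higher after 10 h without a carbon source when any of 3 regulatory genes, clr-3, os-2 or cre-1, was deleted. A gene entered the set where the mean over 3 libraries of log2(FPKM + 1) exceeded that of wild type by at least 0.8 in each of the Δclr-3, Δos-2 and Δcre-1 single deletion strains, and where its highest mean among the 8 groups at 10 h was at least 5 FPKM (a transcript level scaled for gene length and library size). The rule left out 7 named identifiers, of which 4 met the rest of it. The 96 genes were found among 9758 genes in the files, of which 7330 reached 5 FPKM in some group at 10 h; of the 7311 that could have entered, the rule took 1.31%. The level of a gene in the 3 single deletions and in wild type at 10 h chose the set, so every value that uses those libraries is given as a description and carries no test.

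The series holds 42 libraries of messenger RNA from mycelium, 3 biological replicates in each of 14 groups. Mycelium was grown for 16 h at 25 °C in 100 ml of Vogel's minimal medium with 2% sucrose, washed, and moved to the same medium with no carbon source or with 2% Avicel, a microcrystalline cellulose. After 10 h without carbon the groups were the single deletions Δclr-3, Δos-2, Δcre-1 and Δos-1, double deletions that lacked clr-3 together with cre-1 (Δcre-1Δclr-3), os-2 (Δos-2Δclr-3) or os-1 (Δos-1Δclr-3), and wild type, strain FGSC 2489. After 4 h they were Δclr-3 and Pccg1-clr-2 without carbon, the Δclr-2 and Δclr-1 strains moved to Avicel, and wild type on Avicel and without carbon; Pccg1-clr-2 expresses clr-2 from the ccg-1 promoter in a strain that lacks its own clr-2. The labels do not say how many independent isolates stand behind a deletion strain.

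CRE-1 is the carbon catabolite repressor, a transcription factor that keeps genes for other carbon sources low while a preferred sugar is present. OS-2 is the mitogen-activated protein kinase of the osmosensing cascade, and OS-1 is the histidine kinase that signals to it. CLR-3 holds back the cellulase activator CLR-1, which, with CLR-2, turns on the genes for cellulose degradation. Only 4 of the 96 genes carry a symbol in the RefSeq annotation: aod-1 (NCU07953), the alternative oxidase, a mitochondrial enzyme that passes electrons to oxygen outside the cytochrome chain; alc-1 (NCU01816), allantoicase, an enzyme of purine breakdown; and thr-4 (NCU04277) and emp-6 (NCU02252). The other 92 are given by identifier. None of the genes in the 7 lists of known genes reported here is among the 96; these lists hold no identifier that the rule left out.

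The deleted genes read low in their own strains: the highest group mean of a deleted gene was 6.68 FPKM (os-2), and the lowest mean of that gene elsewhere was 85.7 FPKM. For cre-1 the means were at most 2.42 FPKM where deleted and at least 15.8 FPKM elsewhere. For clr-2 the mean was 0.01 FPKM where deleted, but as low as 1.34 FPKM in other strains, Pccg1-clr-2 aside. Library depth, implied from the width of the deposited FPKM bounds, was 16.3 to 24.8 M fragments at 10 h and 5.18 to 41.2 M at 4 h. Libraries of 1 group differed from each other in the 96 genes as a block, more than in other genes. In wild type on Avicel at 4 h, replicate 1, the shallowest library, held the highest value of its group for 91 of the 96 genes (94.8%), where it did so for 21.9% of all genes. The median over the 96 genes of its log2 difference from the mean of the other 2 libraries was 2.44, against -0.46 over all genes. In wild type without carbon at 4 h, replicate 2 was the highest for 85 of the 96 genes (88.5%, all genes 30.2%), with a median of 1.42. Replicate 1 of Pccg1-clr-2 (90 genes, 93.8%, all genes 38.0%, median 1.14) and replicate 1 of Δclr-1 (90 genes, 93.8%, all genes 37.1%, median 1.03) stood apart in the same direction, and replicate 2 of Δclr-3 less so (80 genes, 83.3%, all genes 27.4%, median 0.35). At 10 h the spread was smaller: replicate 3 of Δos-1 was the highest of its group for 93 of the 96 genes (96.9%, all genes 32.4%), with a median of 0.45, and in Δcre-1 replicate 1 lay below the others by a median of -0.60 while replicate 3 was the highest for 71 (74.0%, all genes 19.7%). The libraries of both wild type groups at 4 h went with their labelled medium: 15 cellulose enzyme genes summed to 35134 to 57763 FPKM on Avicel and to 162 to 215 without carbon. What set single libraries apart was not tested, and in bulk RNA a change in the share of cells that express a gene and a change in RNA per cell cannot be told apart.

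**Figure D1:**
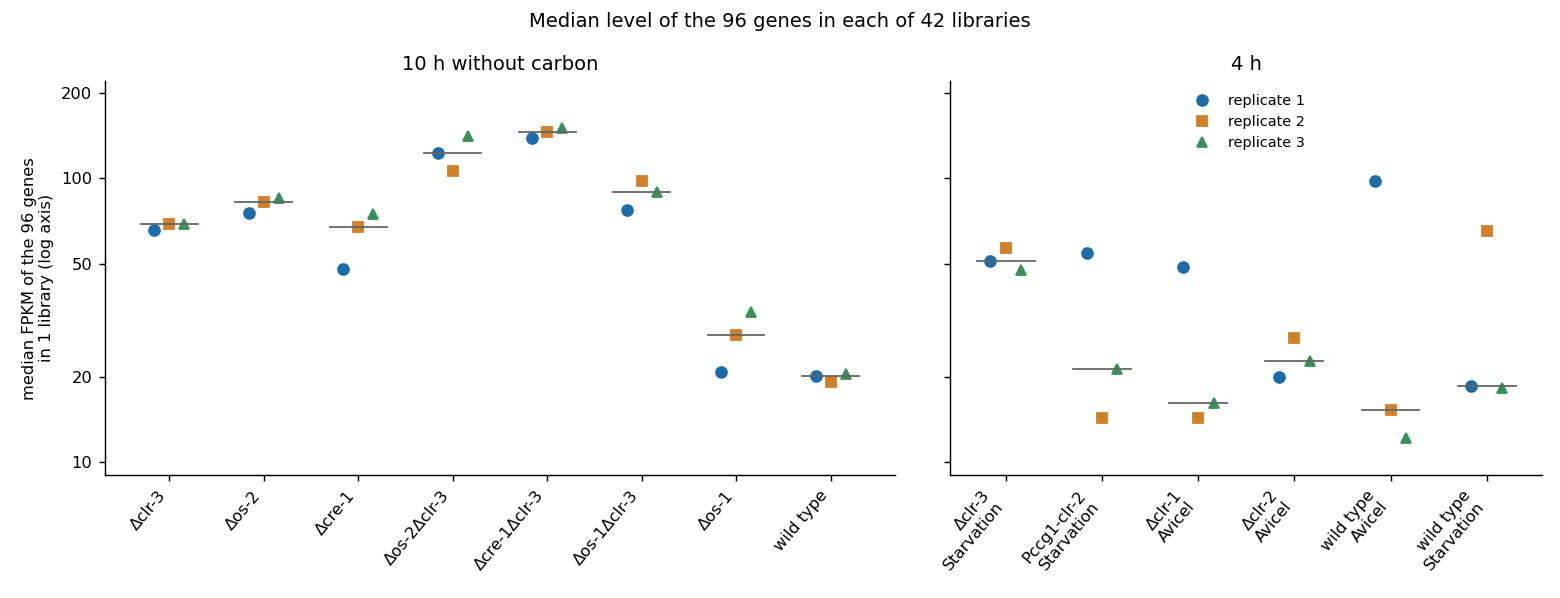
Each point is the median FPKM of the 96 genes in 1 library (log axis) and each line the middle of the 3 libraries of a group, with the 8 groups at 10 h on the left and the 6 groups at 4 h on the right. At 10 h the single deletions of the rule lie between 48.0 and 85.6, Δos-1 between 20.7 and 33.8 and wild type between 19.1 and 20.4, while at 4 h single libraries of Pccg1-clr-2, Δclr-1 and both wild type groups lie well above the rest of their group.

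Across the set, the median FPKM in a library was 65.6 to 69.2 in Δclr-3, 75.7 to 85.6 in Δos-2 and 48.0 to 75.1 in Δcre-1, against 19.1 to 20.4 in wild type at 10 h. The median log2 difference from wild type over the 96 genes was 1.58 in Δclr-3, 1.98 in Δos-2 and 1.47 in Δcre-1. The largest of these 3 differences lay in Δos-2 for 64 genes, in Δclr-3 for 21 and in Δcre-1 for 11. By its smallest difference, a gene of the set ranged from 0.81 (NCU01945) to 5.73 (NCU16673). Just inside the threshold were NCU01945 (0.81), NCU07467 (0.82) and NCU06128 (0.82), and just outside it were NCU07465 (0.79), NCU05498 (0.76) and NCU07466 (0.75). The difference of at least 0.8 was met by 3.94% of all genes at 5 FPKM or more in Δclr-3, by 5.98% in Δos-2 and by 4.1% in Δcre-1. Every Δcre-1 library lay above every wild type library in 95 of the 96 genes (all genes 19.9%), and all 96 did so for Δclr-3 (10.6%) and Δos-2 (20.6%), counts that the rule largely fixes.

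The strongest member, NCU16673 (chromosome III, 3224517 to 3225951 on build NC12), had 1622, 1454 and 1471 FPKM in Δclr-3, 907, 1120 and 1472 in Δos-2, and 178, 582 and 1207 in Δcre-1, against 6.22, 10.9 and 8.76 in wild type. The Δcre-1 libraries spread widely, and the lowest of them was still far above wild type. NCU04276 (chromosome V, 5467674 to 5469105) was the most abundant of the leading genes, with 5522, 5749 and 5409 FPKM in Δclr-3, 5934, 6679 and 7409 in Δos-2, and 1423, 2757 and 3786 in Δcre-1, against 46.3, 60.4 and 92.0 in wild type. NCU01871 (chromosome I, 2195247 to 2199383), whose locus overlaps another coding gene, averaged 999 ± 26.5 FPKM in Δclr-3, 1271 ± 155 in Δos-2 and 611 ± 343 in Δcre-1, against 21.0 ± 1.42 in wild type (SD, n = 3 each). In both of these genes, as in NCU16673, Δcre-1 gave the lowest mean of the 3 deletions in the rule, and its replicate 1 the lowest library. The next 9 genes by the smallest of the 3 differences were NCU07257, NCU07352, NCU07405, NCU01546, NCU05338, NCU07853, NCU06940, NCU08280 and NCU02623, with smallest differences between 2.80 (NCU02623) and 4.06 (NCU07257).

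The genes with symbols were not among the leaders. The alternative oxidase gene aod-1 (chromosome IV, 1234976 to 1237012) had 46.2, 40.4 and 38.0 FPKM in Δclr-3, 30.2, 35.1 and 51.1 in Δos-2 and 12.3, 35.7 and 45.6 in Δcre-1, against 8.53, 8.48 and 8.64 in wild type. Its wild type libraries were nearly equal and every deletion library lay above them. The allantoicase gene alc-1 averaged 118 ± 8.43 FPKM in Δclr-3, 101 ± 2.71 in Δos-2 and 84.0 ± 5.85 in Δcre-1, against 43.1 ± 1.13 in wild type (SD, n = 3 each). For emp-6 the means were 78.5 ± 9.13, 59.4 ± 2.42 and 96.3 ± 19.0 FPKM in Δclr-3, Δos-2 and Δcre-1, against 27.2 ± 1.07 in wild type (SD, n = 3 each). thr-4 averaged 15.0 ± 1.90, 26.6 ± 0.967 and 19.2 ± 1.03 FPKM in the same 3 deletions, against 7.33 ± 0.708 in wild type (SD, n = 3 each).

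The Δos-1 strain lacks the kinase upstream of OS-2, and its libraries entered the rule only through the minimum of 5 FPKM, while the wild type libraries they are set against entered the differences. The median log2 difference of Δos-1 from wild type over the 96 genes was 0.42, where it was 1.98 in Δos-2. The difference reached 0.8 in 25 of the 96 genes, against 2.39% of all genes at 5 FPKM or more, and every Δos-1 library lay above every wild type library in 50, against 16.2% of all such genes. NCU16673 had 9.31, 29.8 and 31.0 FPKM in Δos-1, against 6.22, 10.9 and 8.76 in wild type, so that the groups overlap. NCU04276 had 112, 453 and 966 FPKM in Δos-1, all above wild type, and aod-1 had 8.84, 9.65 and 9.68, just above the 8.48 to 8.64 of wild type. NCU04276 thus stood at 112 to 966 FPKM without OS-1 and at 5934 to 7409 FPKM without OS-2, its partner downstream in the cascade.

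**Figure D2:**
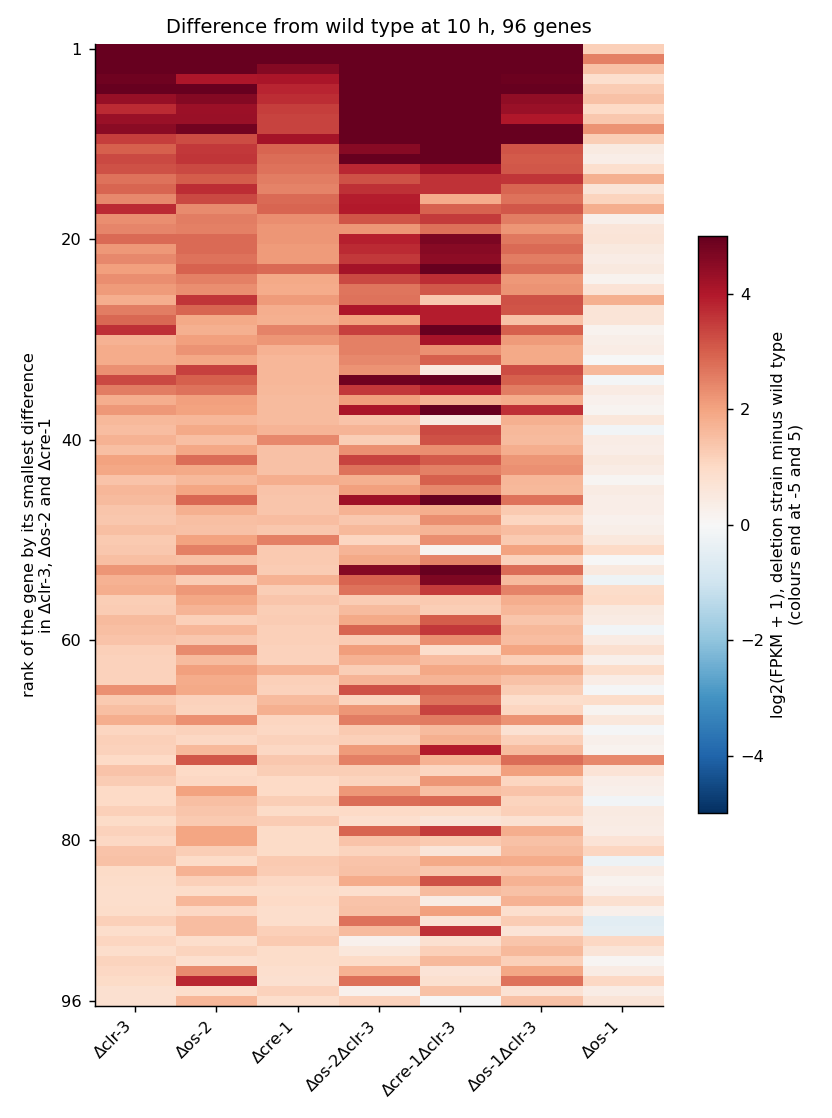
Each row is 1 of the 96 genes, ordered by its smallest difference in Δclr-3, Δos-2 and Δcre-1, each column is a deletion strain at 10 h, and colour is the difference of log2(FPKM + 1) from wild type, ending at -5 and 5. The first 3 columns chose the genes and are red throughout, the Δos-1 column is pale with a median of 0.42, and the Δcre-1Δclr-3 column runs from 0.01 to 9.23.

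In the double deletions the 96 genes stood above wild type too, again as a description. The median log2 difference from wild type was 1.88 in Δos-1Δclr-3, 2.26 in Δos-2Δclr-3 and 2.81 in Δcre-1Δclr-3, while over all genes at 5 FPKM or more it was -0.29, -0.61 and -0.65 in the same strains. The difference was at least 0.8 in 92 genes in Δos-1Δclr-3 (all genes 5.38%), in 93 in Δos-2Δclr-3 (6.03%) and in 86 in Δcre-1Δclr-3 (6.61%), and every library lay above wild type in 96 (15.9%), 95 (11.5%) and 94 (14.3%). Δcre-1Δclr-3 had the highest group mean at 10 h for 61 of the 96 genes, Δos-2 for 17, Δos-2Δclr-3 for 11, Δos-1Δclr-3 for 6 and Δcre-1 for 1. NCU16673 reached 5694, 5444 and 5816 FPKM in Δcre-1Δclr-3, above every library of Δclr-3 and of Δcre-1. The same held for aod-1, with 719, 757 and 695 FPKM in Δcre-1Δclr-3. Set against Δcre-1, every Δcre-1Δclr-3 library was above every Δcre-1 library in 71 genes (all genes 10.1%) and below in 10 (75.3%), and set against Δclr-3 it was above in 76 (17.6%) and below in 12 (64.8%). For Δos-2Δclr-3 against Δos-2 the counts were 53 above (9.92%) and 21 below (76.0%), and against Δclr-3 they were 67 above (12.5%) and 10 below (65.5%). For Δos-1Δclr-3 against Δclr-3 they were 43 above (29.9%) and 16 below (28.6%), with 37 overlapping. The median log2 difference from Δclr-3 over the 96 genes was 0.15 in Δos-1Δclr-3, 0.66 in Δos-2Δclr-3 and 0.92 in Δcre-1Δclr-3.

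The comparison of Δos-1Δclr-3 with Δos-1 asks what loss of clr-3 does where os-1 is already missing, and none of its libraries entered the differences that chose the genes. They entered the minimum of 5 FPKM, and the same 96 genes were found when only the means of the 3 deletions and wild type counted for it. Of the 96 genes, 72 were higher in Δos-1Δclr-3 and 0 were lower. A call needed a limma adjusted p under 0.05 and a log2 difference of at least 1. Over all 7965 genes tested, 2.18% were higher and 0.829% lower (3.01% in either direction). An unadjusted p under 0.05 by limma was found for 95 of the 96 genes and for 5164 of the 7965. The median log2 difference was 1.52 over the 96 genes and -0.18 over all genes tested. In 94 of the 96 genes every Δos-1Δclr-3 library lay above every Δos-1 library, against 12.6% of all genes. All 96 passed the filter on low values. Leaving out 1 library at a time gave 64 to 82 calls.

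NCU16673 had 889, 1508 and 1300 FPKM in Δos-1Δclr-3, against 9.31, 29.8 and 31.0 in Δos-1. The groups were far apart, with a log2 difference of 5.80 ± 0.34 (SE, limma adjusted p = 2.74e-07). NCU01871 had 1057, 1415 and 1273 FPKM in Δos-1Δclr-3, against 27.2, 65.4 and 123 in Δos-1, a log2 difference of 4.34 ± 0.37 (adjusted p = 3.77e-06). NCU06940 had 93.7, 185 and 137 FPKM in Δos-1Δclr-3, against 4.01, 7.17 and 9.77 in Δos-1, a log2 difference of 4.14 ± 0.29 (adjusted p = 8.25e-07). In each of these genes the lowest Δos-1Δclr-3 library and the lowest Δos-1 library were both replicate 1. NCU04276 rose by 4.10 ± 0.53 on the log2 scale, the least precise of the large differences (adjusted p = 5.94e-05), since its Δos-1 libraries ran from 112 to 966 FPKM.

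The alternative oxidase gene aod-1 rose to 90.4, 159 and 117 FPKM in Δos-1Δclr-3, against 8.84, 9.65 and 9.68 in Δos-1, a log2 difference of 3.53 ± 0.19 (adjusted p = 1.57e-07). Its Δos-1 libraries were level, unlike those of the 3 genes above. Of the other genes with symbols, thr-4 (log2 difference 1.00 ± 0.13, with 19.0 to 22.2 FPKM in Δos-1Δclr-3 and 7.71 to 12.7 in Δos-1), emp-6 (0.92 ± 0.09) and alc-1 (0.52 ± 0.14) stayed under the required difference, thr-4 with an unrounded value just below it. NCU05311 was the only one of the 96 genes with a difference below 0 (-0.05 ± 0.15), with 31.0, 26.5 and 26.5 FPKM in Δos-1Δclr-3 and 21.7, 31.0 and 36.1 in Δos-1.

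Known genes of cellulose use and its control were counted in the same comparison. Of 12 cellulose enzyme genes tested, 2 were higher and 0 lower: gh3-3 (NCU08755, log2 difference 2.15) and gh1-1 (NCU00130, 1.40), both for beta-glucosidases. Of 12 genes for lytic polysaccharide monooxygenases and cellobiose dehydrogenase 1 was higher, gh61-3 (NCU02916, 1.09), and of 15 hemicellulose enzyme genes 5 were higher, led by gh11-2 (NCU07225, 2.68). Of 12 transporter genes 3 were higher, with the cellodextrin transporter genes cdt-1 (NCU00801, 3.19) and cdt-2 (NCU08114, 2.53) in front, and of 8 regulators 2 were higher, clr-2 (NCU08042, 2.03) and cre-1 itself (NCU08807, 1.63). None of the 5 genes of the osmosensing cascade that were tested passed in either direction. None of the 7 conidiation genes passed either, and their summed level was 28204 to 31640 FPKM in Δos-1Δclr-3 and 28147 to 34347 in Δos-1. The sums thus overlapped, and no gene of this list was at 0 throughout. How many conidia the cultures held was not measured.

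**Figure D3:**
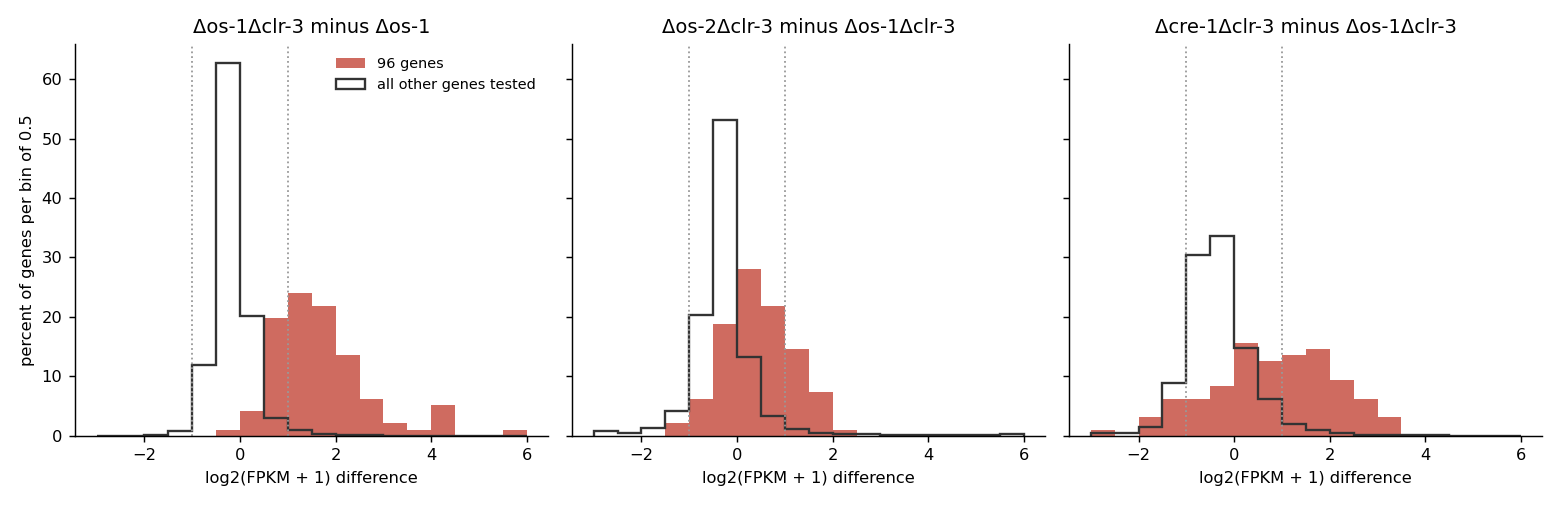
Histograms of the log2(FPKM + 1) difference in bins of 0.5, as a percent of genes, for the 96 genes (filled) and all other genes tested (outline), with dotted lines at -1 and 1. The 96 genes have a median of 1.52 in Δos-1Δclr-3 minus Δos-1 and of 0.42 in Δos-2Δclr-3 minus Δos-1Δclr-3, and spread from -2.71 to 3.13 in Δcre-1Δclr-3 minus Δos-1Δclr-3.

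The double deletions were compared with one another to see how the set depends on which second gene is missing in a strain without clr-3; both comparisons share the Δos-1Δclr-3 libraries. In Δos-2Δclr-3, 22 of the 96 genes (22.9%) were higher than in Δos-1Δclr-3, against 3.13% of all genes tested, and 2 (2.08%) were lower, against 6.91% (10.0% in either direction). Its median log2 difference was 0.42 over the 96 genes and -0.30 over all genes. The largest rise was that of NCU02623, with 998, 705 and 1148 FPKM in Δos-2Δclr-3, against 184, 243 and 227 in Δos-1Δclr-3 (log2 difference 2.10 ± 0.18, adjusted p = 5.82e-07). NCU04872 (1.94 ± 0.14), NCU06815 (1.89 ± 0.17) and NCU07352 (1.86 ± 0.32) followed. The 2 genes that were lower were NCU02603 (-1.18 ± 0.11), with 19.9, 17.2 and 17.5 FPKM in Δos-2Δclr-3 against 44.3, 38.6 and 44.3 in Δos-1Δclr-3, and NCU06051 (-1.06 ± 0.16). Of the 12 cellulose enzyme genes tested, 9 were higher and 1 lower in Δos-2Δclr-3, with a median log2 difference of 5.42. Hemicellulose enzymes were higher in 11 of 15 genes and lower in 0, and monooxygenases with cellobiose dehydrogenase in 10 of 12 and 0. Transporters were higher in 4 and lower in 3 of 12, regulators higher in 1 and lower in 1 of 8, and the osmosensing cascade higher in 0 and lower in 1 of 4. Conidiation genes also differed, with 1 of 7 higher and 4 lower and a summed level of 11683 to 15597 FPKM in Δos-2Δclr-3, against 28204 to 31640 in Δos-1Δclr-3. Whether that change plays a part in the values of the 96 genes was not tested.

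In Δcre-1Δclr-3, 44 of the 96 genes (45.8%) were higher than in Δos-1Δclr-3, against 4.28% of all genes tested, and 10 (10.4%) were lower, a share near the 11.5% of all genes (15.7% in either direction). With the libraries rescaled by median ratios the counts were 55 higher and 5 lower. The 96 genes had a median log2 difference of 0.84 and all genes of -0.39. The other 42 genes were not called, and the difference ran from -2.71 to 3.13.

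NCU01873 led the rise, with 146, 190 and 183 FPKM in Δcre-1Δclr-3, against 15.3, 24.6 and 17.3 in Δos-1Δclr-3 (log2 difference 3.13 ± 0.21, adjusted p = 3.83e-08). NCU06940 followed with 1040, 1190 and 1174 FPKM, against 93.7, 185 and 137 in Δos-1Δclr-3 (3.07 ± 0.29, adjusted p = 5.85e-07), and then NCU03208 (3.07 ± 0.15) and NCU02096 (2.96 ± 0.19). None of these groups overlapped. The alternative oxidase gene aod-1 rose to 719, 757 and 695 FPKM in Δcre-1Δclr-3, against 90.4, 159 and 117 in Δos-1Δclr-3 (2.60 ± 0.19, adjusted p = 8.23e-08), and emp-6 rose to 266, 294 and 312 FPKM, against 52.6, 63.0 and 57.7 (2.31 ± 0.09, adjusted p = 1.24e-09). thr-4 did not pass (-0.08 ± 0.13), nor did alc-1, whose 68.2, 74.0 and 57.7 FPKM in Δcre-1Δclr-3 lay below the 134, 128 and 133 of Δos-1Δclr-3 with a log2 difference of -0.98 ± 0.14, just under the required size.

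The largest fall was that of NCU09738, which had 44.2, 35.3 and 31.9 FPKM in Δcre-1Δclr-3, against 246, 244 and 248 in Δos-1Δclr-3 (log2 difference -2.71 ± 0.36, adjusted p = 1.58e-05). Its level in Δcre-1Δclr-3 was also below the 78.4, 92.7 and 77.0 FPKM of Δcre-1 and the 120, 131 and 126 of Δclr-3. NCU06128 (-1.92 ± 0.28), NCU07309 (-1.84 ± 0.31) and NCU02777 (-1.82 ± 0.20) were next. NCU02777 had 25.3, 29.5 and 22.2 FPKM in Δcre-1Δclr-3, against 96.6, 94.4 and 86.6 in Δos-1Δclr-3, and wild type had 20.5, 21.1 and 25.7. Both genes were above wild type in Δclr-3 and in Δcre-1, as the rule requires. In the strain without both regulators the NCU02777 libraries overlapped wild type, and NCU09738 stood above its 23.0 to 29.7 FPKM in wild type. Of all genes at 5 FPKM or more, 75.3% had every Δcre-1Δclr-3 library below every Δcre-1 library. For Δclr-3 the share was 64.8%. Over the same genes the median log2 difference of Δcre-1Δclr-3 from wild type was -0.65.

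**Figure D4:**
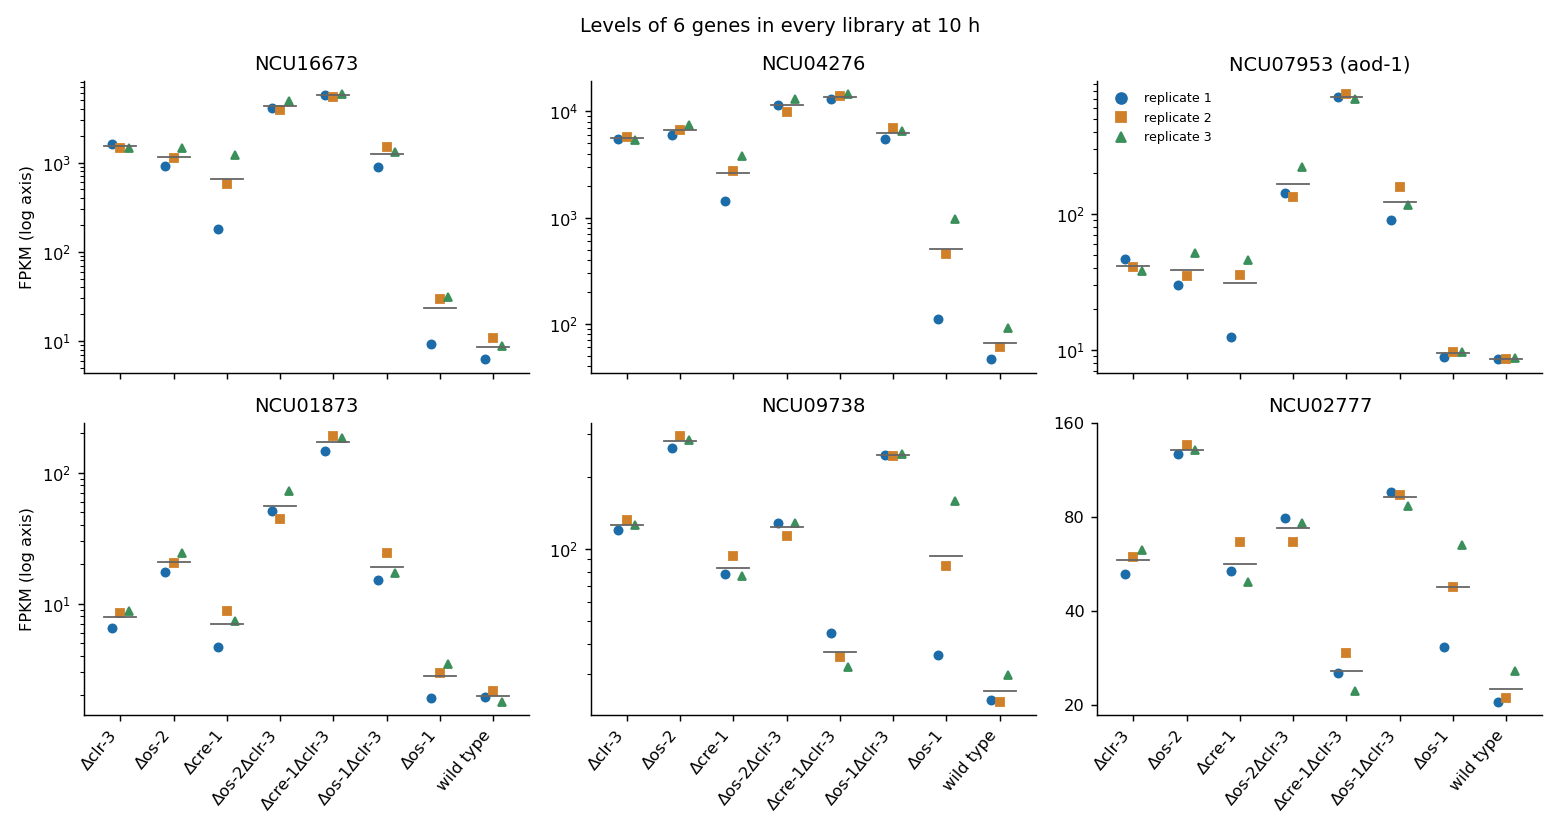
FPKM of 6 of the 96 genes in every library at 10 h (log axes that differ between panels), with a line at the mean of each group. The upper row and NCU01873 are highest in Δcre-1Δclr-3, where NCU09738 (31.9 to 44.2 FPKM) and NCU02777 (22.2 to 29.5) are low.

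With all libraries, the 44 and the 10 genes also differed at 4 h, in libraries that share nothing with this comparison. The split was made after the values were seen and is a description. On Avicel against no carbon in wild type, the 10 genes lower in Δcre-1Δclr-3 had a median log2 difference of -0.91, with 0 of 10 above 0. Of the other group, 32 of the 43 tested genes were above 0, with a median of 0.19. The median over all genes tested was -0.39. In Δclr-1 and Δclr-2 against wild type on Avicel, whose libraries these comparisons share, all 10 were above 0 (medians 0.62 and 0.63). Of the 43, 4 and 3 were above 0 (medians -0.51 and -0.47). Over all genes tested the medians were 0.33 and 0.37. The medians of the 10 genes thus had the sign of the all-gene median in each of these comparisons. In wild type on Avicel, replicate 1 exceeded the other libraries by a median of 0.49 in the 10 genes and 3.55 in the 44. All of these comparisons hold that library. Without the library of each 4 h group least correlated with its own group, signs changed, and the counts given for the 43 genes do not hold. Most of the 43 were then below 0 on Avicel against no carbon, and above 0 in Δclr-1 and in Δclr-2. In Δclr-2, NCU01873, NCU06940, NCU03208 and NCU02096 of the 44 went from -0.46, -0.95, -0.40 and -0.26 to 1.03, 1.85, 0.53 and 0.59. In Δclr-1 they went from -0.01, -0.72, -0.71 and -0.03 to 0.17, 0.23, -0.77 and 0.64. On Avicel against no carbon in wild type the same genes went from -0.23, -0.04, 1.46 and 0.02 to -0.58, -0.47, 0.81 and -0.08.

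Known pathway genes in Δcre-1Δclr-3 against Δos-1Δclr-3 were higher in 5 and lower in 2 of 12 for cellulose enzymes, higher in 7 and lower in 0 of 12 for monooxygenases with cellobiose dehydrogenase, and higher in 7 and lower in 0 of 15 for hemicellulose enzymes. The largest was the xylanase gene gh10-1 (NCU05924, 4.74), followed by the cellobiohydrolase gene cbh-1 (NCU07340, 4.36). Transporters were higher in 1 and lower in 2 of 12, regulators higher in 1 and lower in 0 of 7, and the osmosensing cascade passed in 0 of 5. Conidiation genes were higher in 1 and lower in 3 of 7, among them fl (NCU08726, -2.82), and their summed level was 17286 to 19562 FPKM in Δcre-1Δclr-3, against 28204 to 31640 in Δos-1Δclr-3. The part this plays in the 96 genes was not tested.

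The rule used no library at 4 h, and 95 of the 96 genes were tested; NCU11295 had a mean under 1 FPKM. In Δclr-3 without carbon against wild type without carbon, 6 of the 95 genes (6.32%) were higher, against 3.16% of all genes. None was lower, against 7.45% of all genes (10.6% in either direction). An unadjusted p under 0.05 by limma was found for 17 of the 95 genes and for 3445 of all 8267. Over the 95 genes the median log2 difference was 0.61 and over all genes -0.19, and the median standard error was 0.59 over the 95 genes, against 0.20 over all genes. The 6 were NCU00985 (log2 difference 3.07 ± 0.81), NCU04872 (1.77 ± 0.43), NCU02777 (1.70 ± 0.45), NCU08044 (1.55 ± 0.47), NCU05038 (1.41 ± 0.49) and alc-1 (1.24 ± 0.42). NCU00985 had 254, 370 and 324 FPKM in Δclr-3, against 14.8, 51.6 and 60.9 in wild type (adjusted p = 0.0109). The allantoicase gene alc-1 had 139, 141 and 132 FPKM in Δclr-3, against 28.4, 122 and 54.9 in wild type (adjusted p = 0.0389), and its nearest wild type library was replicate 2.

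The leading genes of the set were not called at 4 h. NCU16673 had 454, 758 and 441 FPKM in Δclr-3, against 1.28, 490 and 1.13 in wild type, where replicate 2 lies within the range of Δclr-3 (log2 difference 5.32 ± 2.54, adjusted p = 0.125). NCU04276 had 1935, 2793 and 1807 FPKM in Δclr-3, against 4.23, 2942 and 11.0 in wild type, with replicate 2 above every Δclr-3 library (5.23 ± 2.64, adjusted p = 0.147). For aod-1 the values were 37.9, 55.2 and 27.1 FPKM in Δclr-3, against 11.4, 126 and 6.35 in wild type (log2 difference 0.80 ± 1.34, adjusted p = 0.679). Without wild type replicate 2, 24 of the 95 genes were called; without wild type replicate 1 or 3 it was 2, and without any 1 of the Δclr-3 libraries it was 3. An alternative chosen after seeing the data left out, from each 4 h group, the library with the lowest mean correlation with its own group, replicate 2 in wild type without carbon and replicate 1 in the other 5 groups. The library left out of wild type on Avicel, of Pccg1-clr-2 and of Δclr-1 was again the one in which the 96 genes were high. In Δclr-3 and Δclr-2 it was not, with median log2 differences from the other libraries of -0.19 and -0.13. With 2 libraries a group, 54 of the 95 genes were higher in Δclr-3 and 0 lower, against 5.32% and 11.0% of all genes, and the median log2 difference was 1.21. aod-1 was then higher by 2.06 ± 0.32 (adjusted p = 0.000584) and NCU16673 by 8.04 ± 0.76 (adjusted p = 3.46e-05). Among known genes, with all libraries, 11 of 14 cellulose enzyme genes, 11 of 14 of monooxygenases and cellobiose dehydrogenase, 10 of 15 of hemicellulose enzymes, 4 of 12 transporters and 1 of 8 regulators were higher in Δclr-3 and 0 lower, and none of 7 conidiation and 6 osmosensing genes passed. The conidiation genes summed to 29165 to 37330 FPKM in Δclr-3 and 51993 to 68125 in wild type without carbon at 4 h, and the part this plays was not tested.

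**Figure D5:**
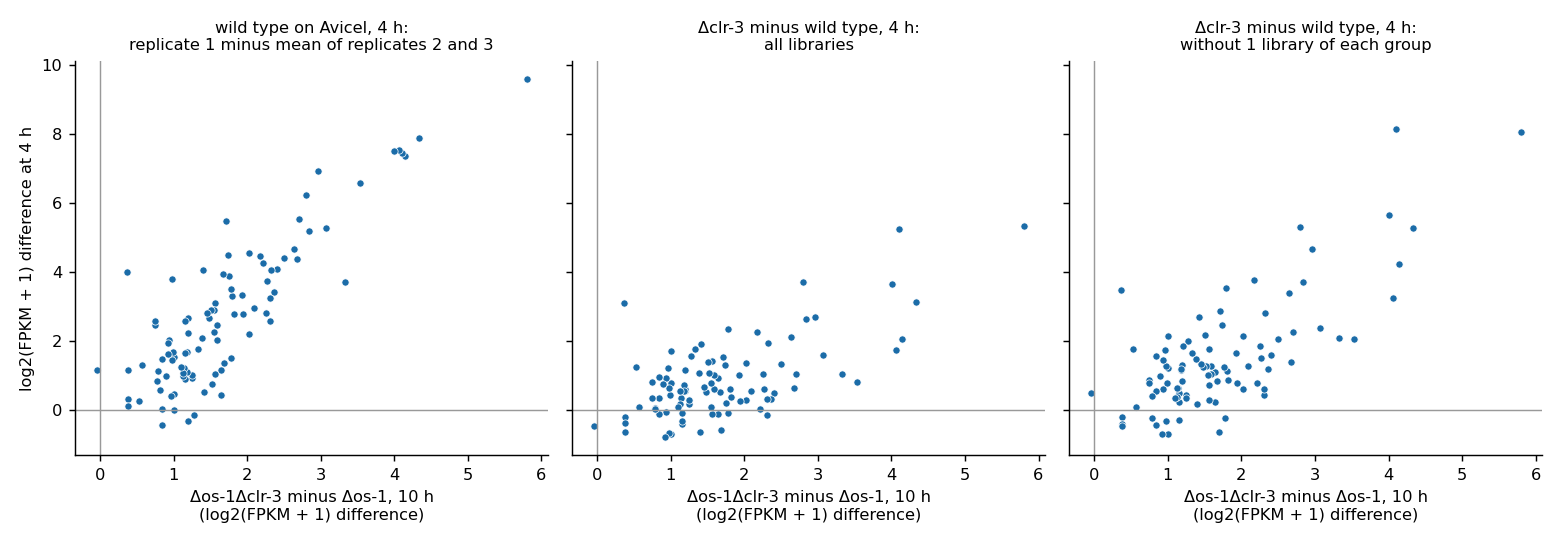
Each point is 1 gene of the set, with its log2(FPKM + 1) difference of Δos-1Δclr-3 from Δos-1 at 10 h on the x axis and, on the y axes, log2(FPKM + 1) differences at 4 h: replicate 1 of wild type on Avicel minus the mean of the other 2 libraries (left), and Δclr-3 minus wild type without carbon with all libraries (middle) and without 1 library of each group (right). Points rise from left to right in the left panel (r = 0.86), and the right panel has a median of 1.21 against 0.61 in the middle one.

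The size of the 10 h difference was set beside values at 4 h that share no library with it. Across the 96 genes, the difference of Δos-1Δclr-3 from Δos-1 at 10 h had a Pearson r of 0.86 (Spearman rho 0.76) with the excess of replicate 1 in wild type on Avicel at 4 h, and 0.78 (0.65) with the excess of replicate 2 in wild type without carbon. With the difference of Δclr-3 from wild type at 4 h, over 95 genes, r was 0.66 (0.48), and 0.75 (0.58) without the library of each group left out above. For the difference of Δcre-1Δclr-3 from Δos-1Δclr-3 the r values with the 2 excesses were 0.58 (0.63) and 0.33 (0.38). These 6 values were computed over the set alone, so whether they are particular to it was not tested. They are across genes, which are not independent replicates and share each library, and they were computed after the pattern was seen. NCU16673 shows it in single values: wild type on Avicel had 2898 FPKM in replicate 1 and 7.22 and 0.727 in replicates 2 and 3, and Δclr-1 on Avicel had 302 in replicate 1 and 1.00 and 2.98 in the others. In wild type on Avicel aod-1 likewise had 358 FPKM in replicate 1 and 3.11 and 2.52 in replicates 2 and 3.

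The other comparisons at 4 h called few of the 95 genes, and the same single libraries stand in them. On Avicel against no carbon in wild type, 0 genes were higher and 4 (4.21%) lower, against 3.05% and 7.47% of all genes (10.5% in either direction). An unadjusted p under 0.05 by limma was found for 11 of the 95 genes and for 4297 of all 8268. The 4 lower genes were NCU07133 (-1.31 ± 0.26), NCU07467 (-1.14 ± 0.19), NCU04287 (-1.11 ± 0.41) and NCU09886 (-1.06 ± 0.24). NCU07467 had 94.4, 72.7 and 80.9 FPKM on Avicel, against 149, 203 and 201 without carbon. After median-ratio rescaling 1 gene was higher and 0 were lower. Without replicate 1 on Avicel the count of calls was 11, and without replicate 3 it was 7. Without the least correlated library of each group 1 gene was higher and 11 lower, against 3.5% and 7.26% of all genes.

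In Pccg1-clr-2, which expresses clr-2 without cellulose, 2 of the 95 genes (2.11%) were higher than in wild type without carbon and 3 (3.16%) lower, against 2.76% and 7.73% of all genes and 10.5% in either direction. After rescaling the counts were 2 and 0; without replicate 1 of Pccg1-clr-2, 9 genes were called, and without replicate 3 of wild type 3. Without the least correlated library of each group 5 were higher and 7 lower, against 3.62% and 9.51% of all genes. NCU04850 had 200, 136 and 134 FPKM in Pccg1-clr-2, against 61.5, 22.3 and 34.8 in wild type (log2 difference 2.05 ± 0.40, adjusted p = 0.00140), and NCU05038 rose by 1.67 ± 0.49. NCU07467 (-1.28 ± 0.19), NCU04287 (-1.21 ± 0.41) and NCU07951 (-1.11 ± 0.26) were lower. The wild type libraries without carbon stand in this comparison and in the one on Avicel.

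On Avicel, 2 of the 95 genes (2.11%) were lower in Δclr-1 than in wild type, against 2.48% of all genes, and 2 were lower in Δclr-2, against 2.21%; both comparisons share the wild type libraries, and in each the genes were NCU08044 and NCU04872. The counts higher were 0 in both, against 5.83% and 4.23% of all genes (8.31% and 6.45% in either direction). An unadjusted p under 0.05 by limma was found for 6 and 8 of the 95 genes, and for 3940 and 4081 of all 8267. NCU08044 had 132, 62.4 and 58.6 FPKM in Δclr-1 and 72.4, 74.9 and 82.8 in Δclr-2, against 193, 214 and 215 in wild type on Avicel. Its log2 difference was -1.39 ± 0.47 in Δclr-1 (adjusted p = 0.0342) and -1.42 ± 0.47 in Δclr-2 (adjusted p = 0.0310). In NCU04872 the differences were -1.39 ± 0.43 and -1.25 ± 0.43. Both NCU08044 and NCU04872 overlap another coding locus, so their values are less certain. In Δclr-1 only 1 gene was called without replicate 2 or 3 of Δclr-1 or replicate 1 of wild type, and in Δclr-2 none was called without any 1 of the Δclr-2 libraries. Without the least correlated library of each group 3 of the 95 genes were higher and 2 lower in Δclr-1, against 4.59% and 3.07% of all genes. In Δclr-2 20 were then higher and 1 lower, against 4.74% and 2.76%. The cellulose enzyme genes summed to 272 to 285 FPKM in Δclr-1 and 534 to 1103 in Δclr-2, against 35134 to 57763 in wild type on Avicel. The conidiation genes summed to 31804 to 42584 FPKM in Δclr-1 and 33464 to 41071 in Δclr-2, against 10951 to 26210 in wild type on Avicel, and their part was not tested.

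Some of the 96 genes lie side by side. On build NC12, 16 of them form 8 adjacent pairs, so that 16 of the 192 immediate neighbours of members (8.33%) were members, where members are 0.984% of all genes. The gaps ran from 201 to 971 bases and no pair overlapped. In Δos-1Δclr-3 against Δos-1 both genes were higher in 6 pairs, 1 in the pair of NCU04276 and thr-4, and none in the pair of NCU04314 and NCU04315. NCU07352 and NCU07351 (chromosome I, 6272570 to 6274575 and 6274777 to 6279789), which are 201 bases apart, rose in the 3 comparisons at 10 h, which share the Δos-1Δclr-3 libraries: by 4.00 and 2.32 in Δos-1Δclr-3 against Δos-1, by 1.86 and 1.78 in Δos-2Δclr-3 against Δos-1Δclr-3, and by 2.31 and 2.34 in Δcre-1Δclr-3 against Δos-1Δclr-3. NCU06939 and NCU06940 (chromosome VII), 306 bases apart, rose by 1.55 and 4.14 in the first of these and by 1.43 and 3.07 in the last. The genes spread over all 7 chromosomes, with 30 of 96 (31.2%) on chromosome I, which holds 24.1% of coding genes. The loci of 25 of the 96 genes (26.0%) overlap another coding locus, against 23.0% of all coding genes, and their values are less certain, since the strandedness of the libraries is not given in the sources used here. Among the leading genes these are NCU01871, NCU05338, NCU06940, NCU07405 and NCU07853. Among the other named genes that were called in some comparison they are NCU02603, NCU04872, NCU07467, NCU07951 and NCU08044. Of the 71 genes with no overlap, 51 (71.8%) were higher in Δos-1Δclr-3 than in Δos-1.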

How the data were processed

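The deposited values are FPKM for 9758 genes in each of 42 libraries, made by the authors; HISAT2 2.0.5 and Cufflinks 2.2.1 are named, without a role, in the submitters' processing notes. The sources used here do not state the annotation release or strand setting. The loci in the files equal the RefSeq NC12 entries for all 96 genes. No counts were used, so depth was implied from the FPKM bounds, assuming Poisson counting. The deposited whole-series table was not used; it numbers the replicates of many libraries differently, and the pairing, the block and each replicate named here follow the per-library files.

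The members and gene lists were chosen with earlier results of these data known. Of 9758 genes, 12 had a status other than OK in some library and were set aside. The fits used log2(FPKM + 1), which understates changes of low genes, for genes averaging 1 FPKM or more over their libraries, with limma 3.58.1 in R 4.3.3 (eBayes with trend, Benjamini-Hochberg adjustment over all genes tested). A gene was called at an adjusted p under 0.05 and an absolute log2 difference of at least 1. The 18 libraries at 4 h formed 1 model (5 comparisons). At 10 h the model held the 12 libraries that did not enter the rule's differences (3 comparisons); they entered its minimum of 5 FPKM, which gave the same 96 genes over the 4 group means of the differences alone. A deleted gene was left out of comparisons of its own strain. In the text ± after FPKM is the SD of 3 libraries, ± after a log2 difference is the SE of the fit, and every adjusted p is from limma. The fit was tested on simulated data. The scaling (by median ratios), filters, pseudocount and left-out replicates were varied.

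Genes named are those with symbols, the 12 highest by the smallest of the 3 differences, up to 4 called per comparison and direction, and 3 on each side of the threshold. Members of neighbouring pairs, list genes, NCU05311, NCU05555 and NCU11295 were named after their values were seen. Lists reported are cellulose enzymes, hemicellulose enzymes, monooxygenases with cellobiose dehydrogenase, transporters, regulators, the osmosensing cascade and conidiation; lists that hold an identifier left out by the rule are not reported. The fits reported treated samples as unpaired, and the replicate number entered only as a block in an alternative. Same-numbered libraries deviated together most clearly for Δclr-1 against wild type on Avicel (r = 0.38, 0.21 and 0.39). There not every library correlated best with its own number, and replicate 1 stood apart in both groups, so pairing was not established. The block changed no call there.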

Additional observations from a re-analysis of the deposited data

Results flagged for a closer look

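In 6 of the 96 genes, loss of clr-3 went one way at 4 h and the other way at 10 h. Every Δclr-3 library lay below every wild type library without carbon at 4 h, and every Δos-1Δclr-3 library lay above every Δos-1 library at 10 h; the difference between the 2 effects was not tested, and strain background differs along with time. The log2 differences at 4 h were -0.81 in emp-6 (NCU02252), -0.65 in NCU04287, -0.41 in NCU05555, -0.67 in NCU06051, -0.60 in NCU06128 and -0.72 in NCU09886, and none of them was called; that of NCU09886 had a limma adjusted p of 0.0356 and was under the required size. At 10 h the same genes had 0.92, 0.37, 1.16, 0.97, 1.69 and 1.00, of which NCU05555, NCU06128 and NCU09886 were called higher. Every Δclr-3 library lay below every wild type library at 4 h in 6 of the 96 genes, against 38.8% of all genes. Every Δclr-3 library lay above in 21 of the 96, against 14.7% of all genes. The share of all genes that went both ways was not counted. NCU05555 was named after its values were seen.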

How the results depend on the processing

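The rule gave 71 genes at a threshold of 1, 121 at 0.6, 103 with a pseudocount of 0.1, 127 after median-ratio rescaling and 97 with no filter on low values, and 91 to 105 without 1 replicate. At 10 h every alternative kept the count of calls within 1.5 times. Calls without 1 replicate ranged from 64 to 82 (72 with all) for Δos-1Δclr-3 against Δos-1, from 22 to 29 (24 with all) for Δos-2Δclr-3 and from 53 to 56 (54 with all) for Δcre-1Δclr-3, both against Δos-1Δclr-3. At 4 h the counts moved: without 1 replicate from 4 to 11 (4 with all) for Avicel against no carbon in wild type, from 2 to 24 (6 with all) for Δclr-3, from 3 to 9 (5 with all) for Pccg1-clr-2, from 1 to 3 (2 with all) for Δclr-1 and from 0 to 3 (2 with all) for Δclr-2. With only the compared groups in the fit they were 2 for Avicel, 3 for Pccg1-clr-2, 0 for Δclr-1 and 1 for Δclr-2; rescaling gave 1 for Avicel and 2 for Pccg1-clr-2, and a pseudocount of 0.1 gave 4 for Δclr-2. Without the least correlated library of each 4 h group they were 12 for Avicel, 54 for Δclr-3, 12 for Pccg1-clr-2, 5 for Δclr-1 and 21 for Δclr-2. The cause was not tested. Over these settings the median of the set changed sign for Avicel, Pccg1-clr-2, Δclr-1 and Δclr-2. With the replicate number as a block the calls were 72, 24 and 55 at 10 h in the order above, and 5, 7, 5, 2 and 3 at 4 h. Of 1176 values of named and called genes under the alternatives, 1085 were still called, 91 kept their direction without a call (67 at 4 h) and 0 reversed. The depth of 5.18 M fragments in replicate 1 of wild type on Avicel limits its low values.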
